A study of Mus musculus with 14 samples.

Results

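The genes described here are 36 genes that build, beat or regulate motile cilia, the beating hairs that ependymal cells carry on the walls of the brain ventricles. They were chosen by gene symbol, and all 36 were found among the 48440 genes of the count table. Bulk RNA-seq of total RNA was made from 3 brain regions of C57BL/6 mice that were either CARIP-/- (knockout) or wild type, and it gave 14 libraries. Cerebellum had 3 knockout and 3 wild-type libraries, cerebral cortex (titled Cerebrum) had 2 and 2, and hippocampus had 2 and 2. The labels give strain, tissue and genotype, and do not say whether libraries of a group came from separate mice. The p-values therefore measure only the spread between these libraries. CARIP is not among the gene names used here, and so the genotype labels were not checked against its level.

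A motile cilium is a ring of microtubule doublets around a central pair of microtubules. Rows of outer and inner dynein arms slide neighbouring doublets past each other, while radial spokes and the nexin-dynein regulatory complex turn that sliding into a beat. Ependymal cells carry tufts of such cilia, which move cerebrospinal fluid, and FOXJ1 is the transcription factor that switches on the program of genes for them. In homogenised tissue, fewer cells of a type and less RNA per cell cannot be told apart.

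Library totals were 20.1 to 38.8 M reads with a median of 24.7 M. Levels are CPM, reads of a gene over library totals in M reads, with totals scaled by TMM, a normalization that sets most genes level between libraries. All 36 genes passed the filter on low counts that left 24680 genes. The least covered was Tmem212, a membrane protein gene used as an ependymal marker, with 255 reads over all libraries. Region markers followed the region labels: a cerebellar granule cell list summed to 3620 to 6010 CPM in cerebellum and at most 213 elsewhere. Some libraries stood apart. Knockout cortex library 2 had a choroid plexus list (the tissue that secretes cerebrospinal fluid) at 725 CPM against 49.5 to 60.6 in the other cortex libraries, and a striatal neuron list at 1300 against 250 to 366. Its thalamic neuron list was at 687 against 123 to 143, and its cortical neuron list was the lowest of the cortex, at 981 against 1410 to 1460. Wild-type cerebellum library 1 had the choroid plexus list at 60.2 against 756 to 1560 in the other cerebellar libraries, and wild-type hippocampus library 2 had it at 1330 against 136 to 201. A list of 9 ependymal genes that are not parts of the cilium was at 409 CPM in knockout cortex library 2, against 216 to 233 in the other cortex libraries. In wild-type cerebellum library 1 it was at 304, within the 258 to 326 of the other cerebellar libraries. In wild-type hippocampus library 2 it was at 289, against 291 to 343. The part of these lists in the results was not tested.

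The start-site sequence of the genes was read because RFX factors, which act with FOXJ1 in ciliated cells, bind a motif that holds GTTGCC. RefSeq promoter windows (GRCm38.p6, 250 bases before to 50 after a start) were present for 29 of the 36 genes. GTTGCC, on either strand, was in the window of 12 of these 29 genes (41.4%), and in 14.1% of all 27025 genes with a window. The X-box was searched only in a strict form, GTTNCC followed by GGNAAC with at most 3 bases between them. This form was in none of the genes' windows and in 0.804% of all windows. Looser forms were not searched, so it is not known whether the genes lack an X-box. The forkhead letters TGTTTAC were in 2 of the 29 genes (6.9%, and 4.05% of all genes) and TGTTTGC in 4 (13.8%, and 5.76%), each on either strand. The 5 sequences that follow are the bases before the start of Ccdc153, Hydin and Spag16, which hold the letters, and of Dnah11 and Dnah9, which carry the region differences described later and do not. They were chosen after the matches were seen. Capitals mark GTTGCC, or GGCAAC where it reads on the other strand.
Ccdc153 (chr9:44240427-44240676, plus strand): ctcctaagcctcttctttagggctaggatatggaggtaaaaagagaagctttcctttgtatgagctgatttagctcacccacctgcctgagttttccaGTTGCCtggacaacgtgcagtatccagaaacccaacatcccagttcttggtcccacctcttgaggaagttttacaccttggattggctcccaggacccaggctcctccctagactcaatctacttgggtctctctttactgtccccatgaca
Hydin (chr8:110266727-110266976, plus strand): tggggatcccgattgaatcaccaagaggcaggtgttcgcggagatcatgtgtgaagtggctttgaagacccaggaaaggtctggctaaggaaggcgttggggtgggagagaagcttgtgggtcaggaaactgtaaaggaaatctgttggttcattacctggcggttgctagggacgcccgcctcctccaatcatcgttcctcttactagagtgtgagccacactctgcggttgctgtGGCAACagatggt
Spag16 (chr1:69826720-69826969, plus strand): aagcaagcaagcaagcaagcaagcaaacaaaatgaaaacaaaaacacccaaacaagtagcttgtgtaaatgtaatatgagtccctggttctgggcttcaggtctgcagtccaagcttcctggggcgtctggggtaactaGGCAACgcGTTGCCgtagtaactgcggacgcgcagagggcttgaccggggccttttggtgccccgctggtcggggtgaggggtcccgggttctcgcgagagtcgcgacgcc
Dnah11 (chr12:118199044-118199293, minus strand): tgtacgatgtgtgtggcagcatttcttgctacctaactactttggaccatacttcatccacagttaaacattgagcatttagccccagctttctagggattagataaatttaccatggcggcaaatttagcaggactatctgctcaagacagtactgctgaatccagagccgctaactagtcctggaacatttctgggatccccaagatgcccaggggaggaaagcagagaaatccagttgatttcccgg
Dnah9 (chr11:66168552-66168801, minus strand): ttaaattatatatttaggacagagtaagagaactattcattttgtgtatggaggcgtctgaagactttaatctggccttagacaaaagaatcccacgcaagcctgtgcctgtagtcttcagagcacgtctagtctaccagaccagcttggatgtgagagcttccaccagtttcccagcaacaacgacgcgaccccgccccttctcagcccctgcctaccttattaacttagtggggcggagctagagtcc
Spag16 holds GGCAAC followed by GTTGCC, the reverse of the X-box order that was searched. The letters are a match in a window and say nothing of binding. The 12 genes with the letters are Ccdc153, Dnah7a, Dnah10, Zmynd10, Hydin, Spag16, Cfap46, Tekt1, Tekt2, Tekt4, Drc1 and Cfap44.

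Compared over regions, the genes did not share 1 pattern. The cerebellum was high in Dnah11 and Dnah6, and the hippocampus in Dnah9. Drc1 and Dnah1 were highest in cortex and lowest in cerebellum, but neither passed the edgeR test between hippocampus and cortex. Regions were contrasted with edgeR's robust quasi-likelihood test, averaging the genotypes, at a Benjamini-Hochberg adjusted p of 0.05 over all genes. Between cerebellum and cortex, 5 of the 36 genes were higher in cerebellum (23% of all genes tested were) and 7 were lower (25.3% were). Between hippocampus and cortex, 9 were higher in hippocampus (5.49% of all genes) and 0 were lower (6.48%). Other tools did call lower genes there, 2 with DESeq2 (8.14% of all genes) and 3 with limma's voom (6.6%), and Drc1 passed in both. Between cerebellum and hippocampus, 2 were higher in cerebellum (22.6%) and 15 were lower (24.7%). In both directions, the counts were 12 (48.4% of all genes), 9 (12%) and 17 (47.3%). An unadjusted p under 0.05 was reached by 14 (55%), 18 (24.6%) and 20 (53.8%). The share of the genes passing was close to that of all genes for cerebellum against hippocampus, below it for cerebellum against cortex and above it for hippocampus against cortex, which was not tested. The median log2 difference over the genes was -0.29, 0.48 and -0.75 in these contrasts.
Per kilobase of exon, which allows genes to be ranked against each other, Dnah11 led the cerebellum at a mean of 6.95 CPM per kb, ahead of Ccdc39 at 3.31 and Foxj1 at 3.1. Drc1 led the cortex at 5.1, ahead of Ccdc39 at 4.01 and Rsph9 at 3.4. Dnah9 led the hippocampus at 6.85, ahead of Rsph9 at 5.02 and Ccdc39 at 4.15. A label of ependymal origin was not tested for any of the genes in this bulk tissue.

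**Figure D1:**
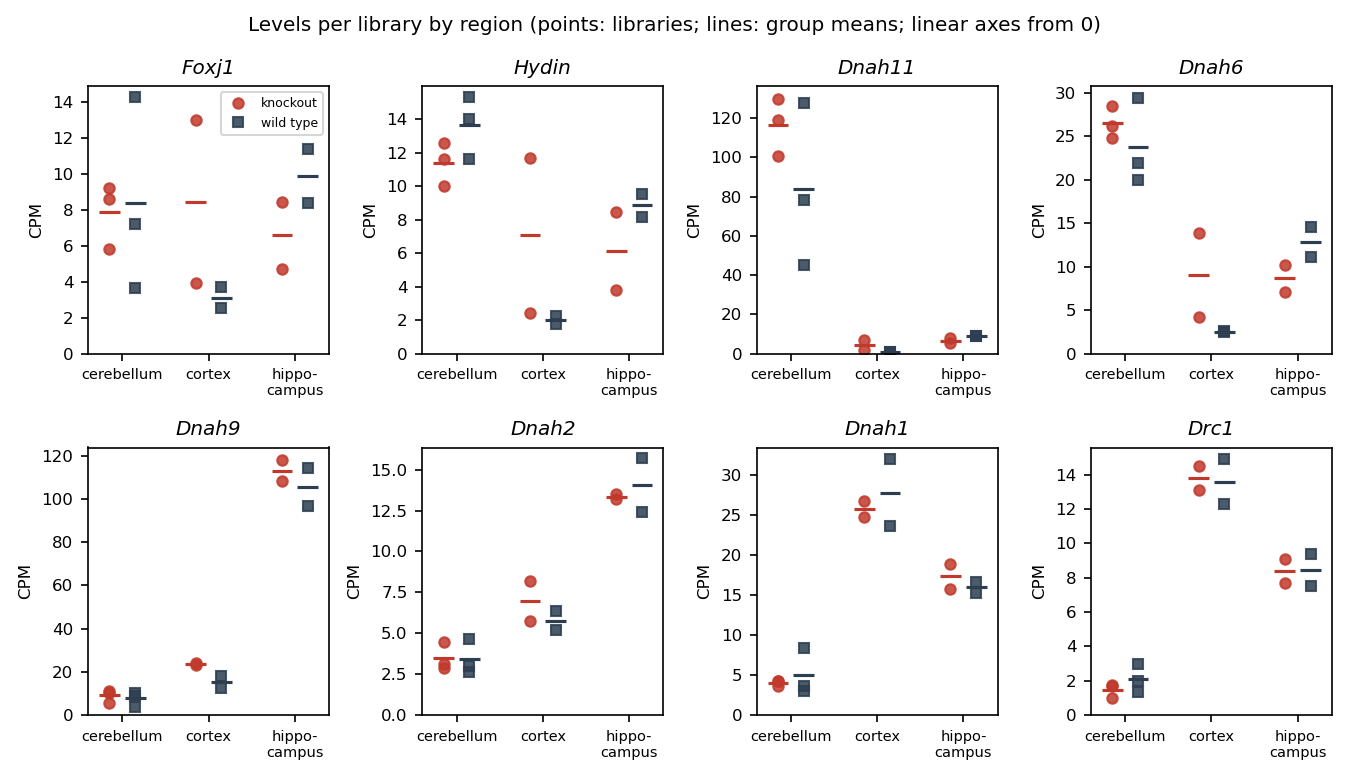
CPM of Foxj1, Hydin, Dnah11, Dnah6, Dnah9, Dnah2, Dnah1 and Drc1 by region on linear axes from 0; points are libraries (circles knockout, squares wild type) and lines are group means. Dnah11 lies at 45.1 to 130 CPM in cerebellum and under 10 in the other regions, and Dnah9 at 96.6 to 118 in hippocampus.

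FOXJ1, the forkhead factor of motile ciliogenesis, is encoded by Foxj1 (ENSMUSG00000034227.7, GRCm38 chromosome 11, 116330704 to 116335399, minus strand). Its level in cerebellum was 8.58, 9.23 and 5.8 CPM in knockout and 3.62, 14.3 and 7.22 CPM in wild type. In cortex it was 3.9 and 13 CPM in knockout and 3.72 and 2.51 in wild type, and in hippocampus 4.68 and 8.46 against 8.38 and 11.4. No region contrast passed for Foxj1 in the main edgeR fit, and the libraries of the 3 regions overlapped. Its median was 7.9 CPM in cerebellum, 3.81 in cortex and 8.42 in hippocampus. In an edgeR fit with genotype and number as a replicate block, Foxj1 did pass between cerebellum and cortex. Without knockout cortex library 2, which held its highest cortex level, Foxj1 was higher in cerebellum than in cortex (log2 1.23, SE 0.43). Ccdc153, Tmem212 and Stk33 are ependymal marker genes whose roles are little known. Stk33, a kinase gene, was 0.177 to 0.775 CPM in cerebellum, 0.383 to 1.42 in cortex and 1.34 to 1.83 in hippocampus, and lower in cerebellum than in hippocampus (log2 -1.62, SE 0.40, edgeR adjusted p = 0.0051). Ccdc153 (ENSMUSG00000070306.2) was 4.6-fold higher in hippocampus than in cortex (log2 2.20, SE 0.55, edgeR adjusted p = 0.02). Ccdc153 was 1.02, 1.36 and 0.634 CPM in knockout and 0.662, 1.43 and 1.33 in wild-type cerebellum, and 1.34 and 3.23 against 2.31 and 3.97 in hippocampus. These genotypes overlap in both regions. Tmem212 had 0 reads in wild-type cortex library 3, where 3 reads would be 0.114 CPM. In cerebellum it was 0.487, 0.646 and 0.544 CPM in knockout and 0.353, 0.99 and 0.589 in wild type, and in hippocampus 0.178 and 1.22 against 0.922 and 1.97. These genotypes overlap, at levels where few reads stand behind each value.

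Outer-arm dynein heavy chains, the motors that set beat frequency, differed between regions in opposite directions. Dnah11 (ENSMUSG00000018581.15, chromosome 12, 117877982 to 118199043, minus strand) had a lowest level of 45.1 CPM, a median of 110 CPM and a highest of 130 in the 6 cerebellar libraries. In cortex it was 1.99 and 6.92 CPM in knockout and 0.92 and 0.571 in wild type, and in hippocampus 5.31, 7.89, 9.1 and 8.85. No cerebellar library overlapped either region. The fold was 53.6 over cortex (log2 5.75, SE 0.45, edgeR adjusted p = 3.4e-06) and 12.9 over hippocampus (log2 3.68, SE 0.39, adjusted p = 2.8e-05). Cdca7l, on the opposite strand and sharing 642 exon bases with Dnah11, was at most 1.96 CPM.

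Dnah9 (ENSMUSG00000056752.16, chromosome 11, 65831282 to 66168551, minus strand) was high in hippocampus. It was 118 and 108 CPM in knockout and 114 and 96.6 in wild-type hippocampus, 24.2, 23.3, 18.1 and 12.4 in cortex, and 3.93 to 11.3 in cerebellum. The 3 regions did not overlap. The fold of hippocampus over cortex was 5.73 (log2 2.52, SE 0.28, edgeR adjusted p = 0.00017), and of cerebellum under hippocampus 13 (log2 -3.70, SE 0.26, adjusted p = 4.8e-07). The opposite-strand gene Gm12296 shares 495 exon bases with Dnah9 and was itself high in hippocampus, at 23.6 to 34.4 CPM against 1.57 to 8.38 elsewhere. How far its reads enter the Dnah9 count was not tested. Dnah5, an outer-arm chain often mutated in human ciliary disease, was 4.11, 5.75 and 5.12 CPM in knockout and 3.4, 6.31 and 5.46 in wild-type cerebellum. It was 13.3 and 17 against 12.5 and 19.8 in cortex, and 17.2 and 17.7 against 12.6 and 15.1 in hippocampus. Its cerebellar libraries were all below those of the other regions. It was lower in cerebellum than in cortex (log2 -1.63, SE 0.19, adjusted p = 1.6e-05) and than in hippocampus (log2 -1.62).

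Inner-arm heavy chains, which shape the bend of the beating cilium, split as well. Dnah6 was 19.9 to 29.4 CPM in cerebellum against 2.44 to 13.8 in cortex (log2 2.39, SE 0.29, edgeR adjusted p = 3.8e-05). Dnah1 went the other way, at 3.05 to 8.43 CPM in cerebellum against 23.6 to 32 in cortex (log2 -2.56, SE 0.23, adjusted p = 2.3e-06). In hippocampus Dnah1 was 15.3 to 18.9 CPM. Dnah2 was at 2.65 to 4.64 CPM in cerebellum, 5.17 to 8.22 in cortex and 12.4 to 15.7 in hippocampus, with no overlap. It was higher in hippocampus than in cortex by log2 1.11 (adjusted p = 0.0047). Dnah3 was 3.12 to 7.72 CPM over all regions and passed in none. It shares 1506 exon bases with Lyrm1, at 6.95 to 12.3 CPM, on the opposite strand. Dnah10 was 1.4-fold higher in cerebellum than in cortex (adjusted p = 0.032), and Dnah12 was higher in hippocampus than in cortex (log2 1.33, adjusted p = 0.018). Dnah7a has close copies, Dnah7b and Dnah7c, and its counts are uncertain. Zmynd10 was 0.309 to 2.16 CPM in cerebellum, 1.38 to 3.21 in cortex and 1.43 to 2.52 in hippocampus. The assembly factors Dnaaf1 and Zmynd10, which help assemble dynein arms in the cytoplasm, passed in no region contrast. Dnaaf1 shares 584 exon bases with Taf1c, at 6.8 to 10.9 CPM, on the opposite strand. How far Taf1c reads enter the Dnaaf1 count was not tested.

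Radial spokes carry signals from the central pair to the dyneins. Rsph1, a spoke head protein, was 1.06, 1.65 and 1.9 CPM in knockout and 0.618, 2.18 and 2.39 in wild-type cerebellum. It was 2.12 and 5.28 against 2.03 and 1.67 in cortex, and 2.36 and 3.88 against 4.44 and 3.03 in hippocampus. Among spoke heads, Rsph9 was 1.83-fold lower in cerebellum than in cortex (log2 -0.87, SE 0.20, edgeR adjusted p = 0.0036), and Rsph1, Rsph4a and Rsph9 were all lower in cerebellum than in hippocampus. Rsph9 was 1.85 to 3.54 CPM in cerebellum, 4.33 to 7.24 in cortex and 7.76 to 8.85 in hippocampus.

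The central pair is the axis about which the beat is organised. Hydin, a central pair protein whose loss causes hydrocephalus in mice, was 3.3-fold higher in cerebellum than in cortex (log2 1.72, SE 0.37, adjusted p = 0.0026). Cfap65, another central pair gene, was lower there (log2 -1.35, adjusted p = 0.01), at 1.1 to 7.66 CPM against 12.1 to 16.7. Cfap46, another projection protein, was 5.35 to 13.3 CPM in all libraries and passed in none, as did Spag16 and Spag17 at 0.23 to 3.52 CPM. Spag17 shares 820 exon bases with Wdr3, at 16 to 32.2 CPM, on the opposite strand, and 516 with Spag17os. How far their reads enter the Spag17 count was not tested. Cfap70 was lower in cerebellum than in hippocampus (log2 -0.99, SE 0.28, adjusted p = 0.01).

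Ruler and regulatory complex proteins set the spacing and the control of the dynein arms. Drc1, a nexin-dynein regulatory complex subunit, had the largest fall of the list between cortex and cerebellum. It was 12.3 to 14.9 CPM in cortex, 7.55 to 9.36 in hippocampus and 0.997 to 3 CPM in cerebellum (log2 -2.94, SE 0.22, adjusted p = 3.3e-07). Ccdc39, a ruler protein that spaces the dynein repeats, was 14.6 to 40.5 CPM and passed in none. It shares 1256 exon bases with Ttc14, at 47.7 to 186 CPM, on the opposite strand. Both were lowest of all libraries in knockout cortex library 2, at 14.6 and 47.7 CPM. The sources used here do not say whether counting used strand, so reads of that overlap cannot be told apart. Ccdc40, its partner in the ruler, was 1.36 to 4.9 CPM and lower in cerebellum than in hippocampus (log2 -0.94, SE 0.35, adjusted p = 0.041). Cfap44 and Cfap43, of the complex that tethers inner arms, were both higher in hippocampus than in cortex (Cfap44 log2 1.18, SE 0.15, adjusted p = 0.00027). Tekt1, a tektin of the doublet wall, was 2.17, 2.1 and 1.27 CPM in knockout and 0.574, 1.23 and 2.12 in wild-type cerebellum. It was 0.976 and 4.66 against 0.766 and 1.07 in cortex, and 2.32 and 1.74 against 3.31 and 3.15 in hippocampus. The cerebellar and cortical genotypes overlap, and both knockout hippocampal libraries were below the wild types. The other doublet wall genes, Tekt2, Tekt4, Cfap52 and Cfap126, were 0.236 to 2.82 CPM, and none of these 5 passed in a region contrast. Ak7, an adenylate kinase of the cilium, was higher in hippocampus than in cortex (log2 1.82, SE 0.43, adjusted p = 0.014) and in cerebellum than in cortex (log2 1.19, SE 0.40, adjusted p = 0.026).

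Some counts depend on a library. Without knockout cortex library 2, cerebellum against cortex had 21 genes passing (13 higher, 8 lower), with all 12 among them, while 44.6% of all genes passed. Hippocampus against cortex then had 15, with all 9 among them, and 13.5% of all genes. Without wild-type cortex library 3 hippocampus against cortex had 3 genes, Cfap44, Dnah2 and Dnah9, and 9.22% of all genes. Without knockout hippocampus library 2, which leaves 1 such library, Ak7, Ccdc153, Cfap43, Dnah12 and Dnah6 no longer passed. Cfap46, not among the 9, was then lower in hippocampus. Cerebellum against hippocampus fell to 11 without knockout cerebellum library 1, with 43% of all genes. There Ccdc153, Ccdc40, Cfap65, Dnah12, Rsph1 and Rsph4a no longer passed. Between cerebellum and cortex Ak7 and Dnah10 no longer passed without wild-type cortex library 3. The folds of Dnah11 and Hydin over cortex were larger without knockout cortex library 2, at log2 6.34 and 2.50, and so was that of Ak7, at 1.92. Between hippocampus and cortex Ccdc153 was then at 3.00, Dnah11 at 2.66 and Ak7 at 2.54.

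In the cortex, 32 of the 36 genes had a higher estimate in knockout than in wild type and 4 a lower one, with a median log2 difference of 0.82, where the median of all genes was 0.02. None of the 36 passed (edgeR, 0% of all genes tested), and 14 had an unadjusted p under 0.05 (7.39% of all genes). Both knockout libraries were above both wild-type libraries for 19 genes (14% of all genes), among them Foxj1, Ccdc153, Rsph1, Dnah11, Hydin and Ak7, and below both for 1, Tekt2 (13.3%). DESeq2 called 3 of the 36, Dnah6, Dnah11 and Ccdc153, all higher, and 33 of all 24680 genes (0.134%). limma's voom called 0.

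**Figure D2:**
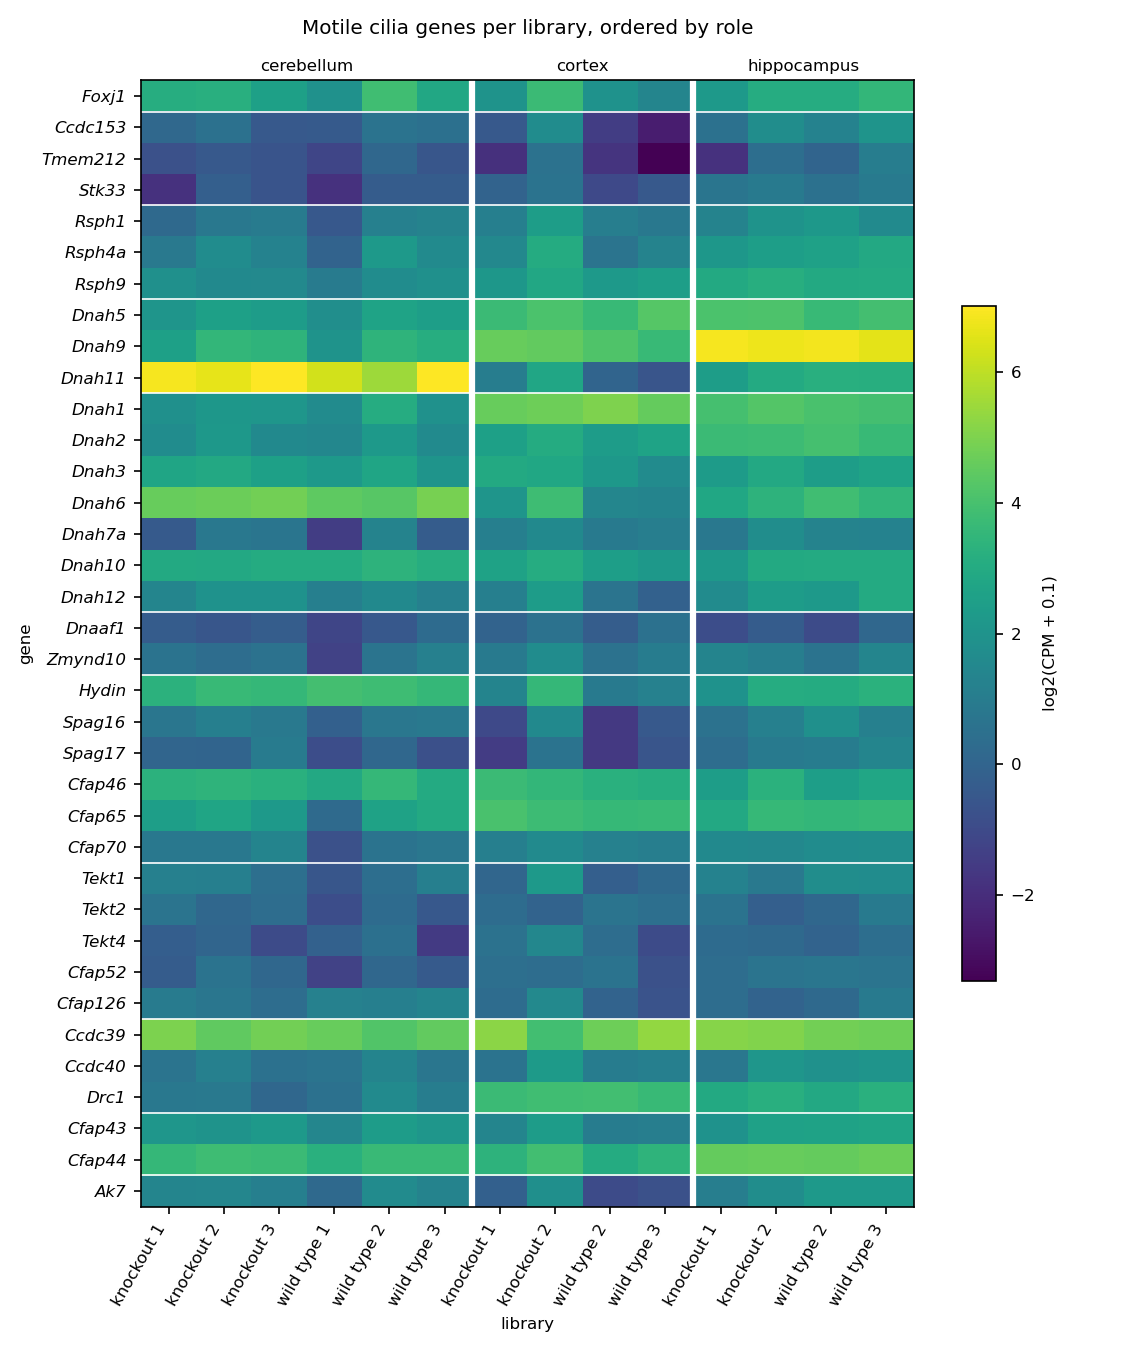
Level of the 36 genes (rows, ordered by role) in the 14 libraries (columns), as log2(CPM + 0.1) in colour. Dnah11 is bright in cerebellum and Dnah9 in hippocampus, and Ccdc153, at 3.15 CPM, is brighter in knockout cortex library 2 than in the other cortex libraries.

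Ccdc153 in the cortex was 0.637 and 3.15 CPM in knockout and 0.268 and 0.0761 in wild type, and in wild-type library 3 this was 2 reads. The difference was log2 3.45 (SE 0.86, edgeR adjusted p = 0.66). Ak7 was 0.806 and 3.5 CPM against 0.422 and 0.495 (log2 2.24, SE 0.64, adjusted p = 0.66). Hydin was 2.42 and 11.7 CPM in knockout against 1.76 and 2.25 (log2 1.82, SE 0.57, adjusted p = 0.66). In each case the higher knockout value was library 2, and library 1 was nearer the wild types. Foxj1 differed by log2 1.45 (SE 0.65, adjusted p = 0.68), Tmem212 by 3.02 (SE 1.22) from 0.17 and 1.4 CPM against 0.192 and 0. Tekt1 differed by 1.63 (SE 0.66) and Rsph1 by 1.01 (SE 0.57), and Dnah5 by -0.09 (SE 0.29).

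Knockout cortex library 2 was the highest cortex library for 26 of the 36 genes, where it was the highest for 37% of all genes. Its ratio to the median of the other cortex libraries had a median of 2 over the genes, from 0.388 for Ccdc39 to 11.7 for Ccdc153. By role the medians were 8.22 for the ependymal markers, 7.08 for Ak7, 3.51 for Foxj1, 3.31 for the central pair, 2.6 for radial spokes and 2.22 for the doublet wall. They were 1.97 for the tether complex, 1.69 for dynein assembly, 1.51 for inner arms, 1.29 for outer arms and 1.11 for the ruler and regulatory complex. The choroid plexus marker Ttr was 511 CPM in this library against 7.13 to 21.9, and Drd2, of striatal neurons, was 44.3 against 0.422 to 1.27. With library 2 left out, the median log2 difference over the genes was 0.27, with 25 higher and 11 lower. Knockout cortex library 1 alone was above both wild types for 19 genes (30.3% of all genes) and below both for 3 (27.2%). With library 1 left out instead, the median was 1.12. Each of these fits has 1 knockout cortex library, assumed to vary like the other groups.

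**Figure D3:**
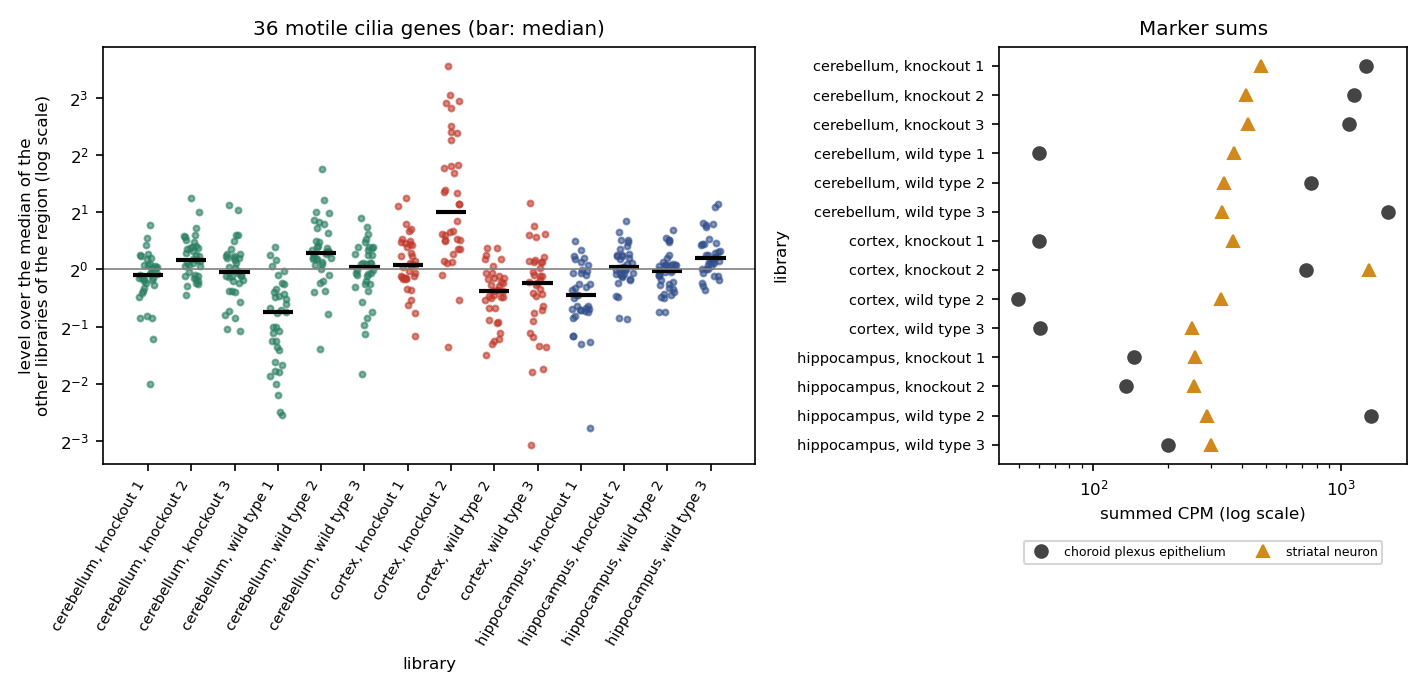
Left, level of each gene in a library over its median in the other libraries of the region (log scale, levels of 0 left out), with a bar at the median over the genes; right, summed CPM of the choroid plexus and striatal neuron lists (log scale). Knockout cortex library 2 has a median ratio of 2 and the highest sums of the cortex, 725 and 1300 CPM.

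In cerebellum Hydin was 10, 12.6 and 11.6 CPM in knockout and 15.3, 14 and 11.6 in wild type, and Ak7 2.52, 2.61 and 2.13 against 1.06, 3.07 and 2.36. The genotypes overlapped for both genes. There 21 genes had a higher estimate in knockout and 15 a lower one (median log2 0.11, all genes -0.01). None passed with edgeR (0% of all genes) or DESeq2 or limma voom, and none had an unadjusted p under 0.05 (3.18% of all genes). The knockout libraries lay above the wild types for Cfap70, a central pair protein (4.78% of all genes), and below them for Cfap126 (4.52%). Wild-type cerebellum library 1 was the lowest cerebellar library for 25 genes (18.4% of all genes), with a median ratio to the median of the others of 0.595, from 0.172 for Dnah7a to 1.32 for Hydin. Without it the median was -0.15, with 13 genes higher and 23 lower, so the direction of the median turned. Wild-type cerebellum library 2 was the highest cerebellar library for 15 genes (26.6% of all genes), and without it the median was 0.28. It had an oligodendrocyte list at 8930 CPM, against 2260 to 4300 in the other cerebellar libraries. Dnah11 was 119, 101 and 130 CPM in knockout and 78.5, 45.1 and 128 in wild type, which overlap (log2 0.48, SE 0.41).

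In the hippocampus 11 genes had a higher estimate in knockout and 25 a lower one (median log2 -0.28, all genes -0.00). None passed (edgeR, 0% of all genes; DESeq2 and limma voom 0) and none had an unadjusted p under 0.05 (1.91% of all genes). Knockouts lay below both wild types for 11 genes (18.6% of all genes), among them Rsph4a, Dnah11, Dnah6, Tekt1 and Ak7, and above both for Dnah5 and Ccdc39 (18.1%). Ak7 was 2.05 and 3.31 CPM in knockout against 4.61 and 4.76 in wild type (log2 -0.80, SE 0.56). Hydin was 3.79 and 8.46 CPM against 8.18 and 9.52 (log2 -0.53, SE 0.54). Knockout hippocampus library 1 was lowest for 21 of the genes (27.4%), with a median ratio of 0.737, and without it the median was -0.03. Wild-type hippocampus library 2, where Ttr was 995 CPM against 35.2 to 68.6, had a median ratio for these genes of 0.98.

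Averaged over the regions by limma's voom, with libraries of 1 genotype and number treated as a block, 31 genes were higher in knockout and 5 lower (median log2 0.31), and none passed (0%). Of the 36 genes 1 had an unadjusted p under 0.05 (4.4% of all genes). This was Dnah3, an inner-arm chain, at log2 0.49 (SE 0.17). Lyrm1, which overlaps Dnah3 on the opposite strand, was 12.3 and 11.7 CPM in knockout and 8.28 and 9.4 in wild-type cortex. Its genotypes overlapped in the other regions. How far Lyrm1 reads enter the Dnah3 count was not tested. Without knockout cortex library 2 the median over the 36 genes was 0.04. The knockout effect in cerebellum minus that in cortex had a median of -0.64 over the genes, hippocampus minus cortex -0.99, and cerebellum minus hippocampus 0.24. No gene passed for these differences (edgeR, 0% of all genes); 7 (5.3%), 14 (3.17%) and 0 (1.49%) had an unadjusted p under 0.05. The contrasts share the cortex or other libraries, and so are not independent of each other.

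**Figure D4:**
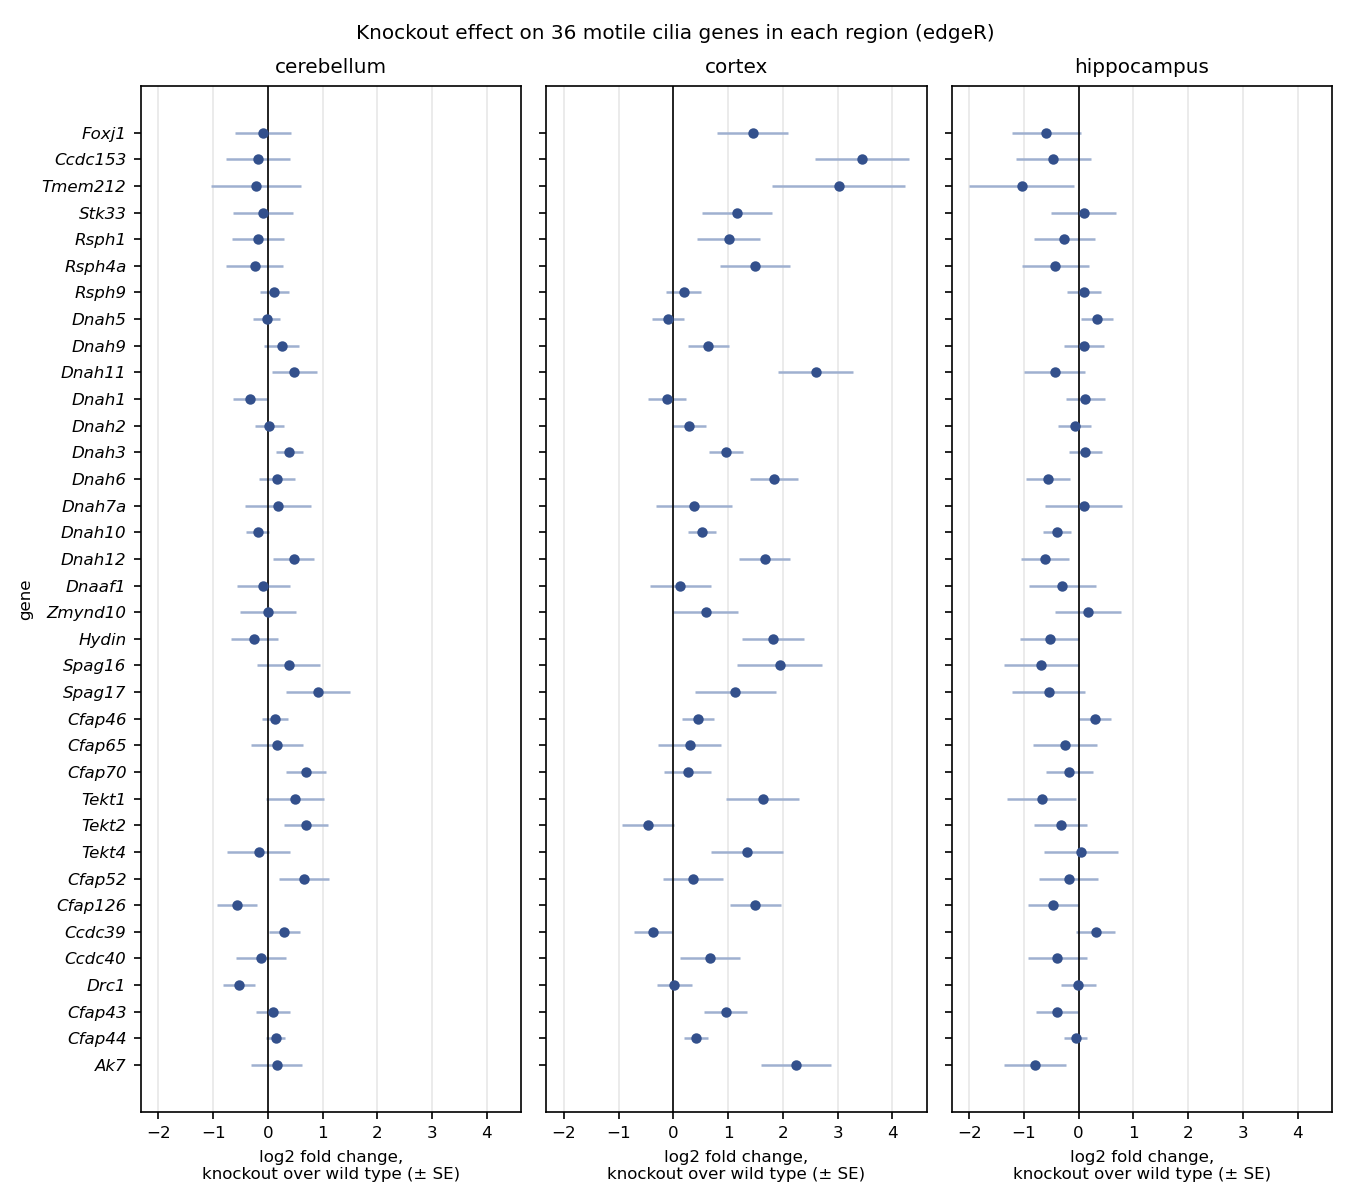
Log2 difference of knockout and wild type for each gene in cerebellum, cortex and hippocampus, with bars of 1 SE (edgeR). In cortex 32 of the 36 points lie above 0, in cerebellum 21 and in hippocampus 11.

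Other ciliary genes were read from lists chosen with earlier results known. Of 85 other motile cilia genes tested, 0 passed in any knockout comparison, and in the cortex 65 were higher and 20 lower (median log2 0.34). Without knockout cortex library 2, with its choroid plexus, striatal and thalamic markers, 57 of 86 tested were higher and 29 lower (median 0.14). Over regions 16 passed as higher (23% of all genes tested did) and 31 as lower (25.3%) in cerebellum than in cortex. Dnal1, an outer-arm light chain, was at log2 -1.27 there (SE 0.08, edgeR adjusted p = 9.1e-08). Between hippocampus and cortex 10 were higher (5.49% of all genes) and 4 lower (6.48%), with Vwa3b at log2 3.58. Between cerebellum and hippocampus 12 were higher (22.6% of all genes) and 34 lower (24.7%). Of 16 regulators of multiciliation, 0 passed in knockout comparisons (cortex median 0.28, and 0.05 without knockout cortex library 2). Of these regulators 5 were higher (23% of all genes) and 3 lower (25.3%) in cerebellum than in cortex. Trp73, a transcription factor of multiciliated cells, was higher in cerebellum than in cortex (log2 2.73, SE 0.32) and Rfx3 higher in hippocampus than in cortex (log2 1.33, adjusted p = 0.00021). Of 38 primary cilium and transport genes 0 passed in knockout comparisons (cortex median 0.05, and 0.07 without knockout cortex library 2). In cerebellum 4 of them were higher than in cortex (23% of all genes) and 16 lower (25.3%).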

How the data were processed

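Total RNA of 3 brain regions from knockout and wild-type mice was sequenced in 14 libraries. Read counts, whole and not normalized, are what the authors deposited, in a single table where each library has a column (0 columns went unused). The submitters' processing notes name featureCounts 2.0.1, STAR 2.7.3a, cutadapt 2.10, Trim Galore 0.6.4 and the build GRCm38.p6. How strand and multimapped reads were handled, and the annotation release, is not given in the sources used here. Symbols and exons came from GENCODE M21 (48058 identifiers, 99.2%, matched). Genes were filtered by edgeR's filterByExpr over 6 groups (24680 kept, 8 residual degrees of freedom, biological coefficient of variation 24.7%), scaled by TMM and tested with edgeR 4.0.16 (R 4.3.3, robust quasi-likelihood). The mean knockout effect used limma 3.58.1 (voom, statmod 1.5.0, correlation within a genotype number 0.096). Adjusted p-values are Benjamini-Hochberg over all genes tested, at 0.05. DESeq2 1.42.0, leaving out each library in turn, other filters and scalings, and blocks were tried. Code was tested on simulated data. Numbers pair the cerebellar libraries by the rule used: same-numbered knockout and wild-type libraries correlated in their deviations at 0.31, 0.81 and 0.41 over 15747 genes, as did some that differ in number (0.38 and 0.52). The block changed no call there among the motile cilia genes. Of all genes tested in the cerebellum alone, 58 (0.269%) passed with the block and 0 without it. The members and lists were chosen with earlier results of these data known. Named genes are fixed ependymal and ciliary examples, the highest gene of each role, and up to 6 passing genes by fold per direction and region contrast. In other lists, up to 4 passing genes by p, or else the 2 most abundant, may be named. Ttr and Drd2 are named as examples of choroid plexus and striatal neuron markers, and were chosen with these results known. Whether the ciliary genes vary with them was not tested.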

Additional observations from a re-analysis of the deposited data

Results flagged for a closer look

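For 8 of the genes, every knockout library lay on one side of every wild-type library in one region and on the other side in another, as did 5.2% of all genes tested. Between cortex and hippocampus these were Rsph4a (log2 1.5 and -0.43), Dnah11 (2.6 and -0.44), Dnah6 (1.84 and -0.56), Dnah10 (0.52 and -0.4), Cfap43 (0.96 and -0.4) and Ak7 (2.24 and -0.8), with the cortex value first. Of all genes, 2.03% were likewise higher in cortex and lower in hippocampus. Cfap70 was 0.7 in cerebellum and -0.17 in hippocampus (0.446% of all genes lay so), and Cfap126 was -0.56 in cerebellum and 1.5 in cortex (0.397%). The differences of the effects were tested and none passed: the edgeR adjusted p was 0.93 for hippocampus minus cortex in the 6 genes, 1 for Cfap70 and 0.79 for Cfap126. In the cortex the larger of the 2 knockout values was library 2, the library with the choroid plexus, striatal and thalamic markers described above.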

How the results depend on the processing

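In the cortex, DESeq2 called 3 of the genes (33, or 0.134%, of all genes) against 0 by edgeR. Leaving out a library at a time, the cortex count ranged from 0 to 12 (11.7% of all genes passed where it was 12) and its median log2 difference from 0.27 to 1.12. The counts of genes whose knockout effect differed ranged from 0 to 6 for cerebellum minus cortex (6.01% of all genes at 6) and from 0 to 10 for hippocampus minus cortex (2.95% at 10), each highest without knockout cortex library 1, and the medians from -0.94 to -0.33, -1.25 to -0.57, and 0.04 to 0.64 for cerebellum minus hippocampus. The region counts ranged from 10 to 21 (42.4% and 44.6% of all genes in those fits), 3 to 15 (9.22% and 13.5%) and 11 to 20 (43% and 49.8%), and the median of hippocampus against cortex from 0.37 to 0.88. With genotype and number as a replicate block the region counts were 15, 12 and 16 (40.4%, 11% and 40% of all genes). The 12 for hippocampus against cortex were 10 higher (5.21% of all genes) and 2 lower (5.82%). Same-numbered libraries of different regions did not all correlate (wild-type cerebellum and hippocampus at -0.09 and 0.04), so the block is a number only. In the block within the cerebellum none of the 36 passed (0.269% of all genes), and the median was 0.15. No paired analysis was possible for cortex or hippocampus because the genotypes share 1 number there. Of 500 alternatives of 25 named region values 481 still passed in the same direction, 19 kept the direction but fell short, and 0 reversed. The 25 are the passing genes of largest fold in each direction, so weaker calls are not among them. Some alternatives leave out a library of the region that is not in the contrast. The cause of these moves was not tested.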
